A study of Canis lupus familiaris with 45 samples.

Results

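Calmegin (CLGN) and calreticulin (CALR) are lectin chaperones of the endoplasmic reticulum (ER), and their messenger RNA was followed in the left ventricle of dogs during heart failure induced by rapid pacing. They were covered by all probe sets annotated to either symbol alone, 1 for CLGN and 3 for CALR. These are 2 of 6540 named genes and 4 of 23836 probe sets on the array, once controls are left out. Both genes were chosen with their signals in all 5 groups already known from an earlier analysis of the same arrays. Their levels, and the differences between groups that follow from them, are therefore given as a description and without a test.

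All dogs were male and of matched age. The unpaced dogs are called Day-0, and the other dogs carried a pacemaker that drove the right ventricle at 240 pulses per minute. The names Day-3, Week-1, Week-2 say how long pacing had lasted. Pacing continued for 3 to 4 weeks in the End-stage dogs, whose heart failure was verified by hemodynamic measurement. The labels do not say whether Day-0 dogs were operated on. Each group held 3 dogs and RNA was isolated 3 times from each dog, so that 45 single-colour arrays described 15 dogs. The tissue was a transmural section of the whole wall, in which a lower share of a cell type and less RNA per cell cannot be told apart. The median signal of an array lay between 33.3 and 48.5. A level is given as log2 of the MAS5 signal, averaged over the 3 arrays of a dog, and levels of different probe sets are not comparable with each other.

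Proteins that enter the ER receive an N-linked glycan, and trimming of its glucose residues lets the lectin chaperones bind the unfinished protein and hold it until it has folded. Calnexin (CANX) does this from the ER membrane and calreticulin from the ER lumen, where calreticulin also binds calcium. Calmegin resembles calnexin, and in the mouse it is known from testis, where it is needed for sperm to bind the egg. In mice that lack calreticulin the embryonic heart does not develop normally. Chaperones of the ER are induced by the unfolded protein response, in which the factors XBP1 and ATF6 raise their transcription.

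Week-1 dog 1 and End-stage dog 1 had arrays that went against their labels. Over 200 probe sets per dog number, chosen on dogs of the other numbers as those that best told dogs apart, 5 of the 6 arrays of these 2 dogs were closest to an array of the other one, with a Pearson r of up to 0.93 between the dogs. Each of the other 39 arrays had its best match within its own dog. Arrays were compared only among dogs of the same number, so a match to a dog of another number could not be seen. The arrays were kept under their labels. Beside values of CLGN and CALR at Week-1, End-stage and in all paced dogs, the value without these 2 dogs is given.

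CLGN was lowest in the unpaced dogs and highest after 2 weeks of pacing. Its gene lies on chromosome 19 at 3133450 to 3164709 of the dog assembly UU_Cfam_GSD_1.0, and it was read by probe set 1589058_at. The Day-0 dogs had log2 signals of 5.60, 5.23 and 5.78, and the Day-3 dogs had 6.61, 6.36 and 5.67. Day-3 dog 3 thus lay within the unpaced range, while Day-3 dogs 1 and 2 lay above it. The Week-1 dogs had 7.22, 7.51 and 6.90, the Week-2 dogs had 7.34, 7.92 and 7.67, and the End-stage dogs had 7.19, 7.39 and 6.57. All 9 of these dogs lay above the 3 unpaced dogs, so that 11 of 12 paced dogs exceeded the unpaced range.

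On the linear scale the geometric mean signal of CLGN was 46.4 at Day-0, 74.1 at Day-3, 148 at Week-1, 200.05 at Week-2 and 133 at End-stage. Relative to Day-0 the log2 difference was 0.68 at Day-3, 1.67 at Week-1, 2.11 at Week-2 and 1.51 at End-stage, each with an SE of 0.27 (n = 3 dogs per group). These correspond to 1.60-fold, 3.18-fold, 4.31-fold and 2.86-fold higher signals. Without the 2 dogs that matched each other the difference was 1.67 at Week-1 and 1.45 at End-stage, and the mean of all paced groups minus Day-0 was 1.47, against 1.49 with them.

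The groups ordered by their mean CLGN level were Week-2 (7.64 ± 0.29, SD, n = 3 dogs), Week-1 (7.21 ± 0.30), End-stage (7.05 ± 0.43), Day-3 (6.21 ± 0.49) and Day-0 (5.54 ± 0.28). Each pair of neighbours in this order overlapped: the lowest Week-2 dog lay below the highest Week-1 dog, and the same held for Week-1 and End-stage, for End-stage and Day-3 and for Day-3 and Day-0. Over longer steps the dogs separated. All Week-1 dogs lay above all Day-3 dogs, with a difference of 1.00 (SE 0.27), whereas End-stage minus Week-2 was -0.59 (SE 0.27) with overlapping dogs.

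**Figure D1:**
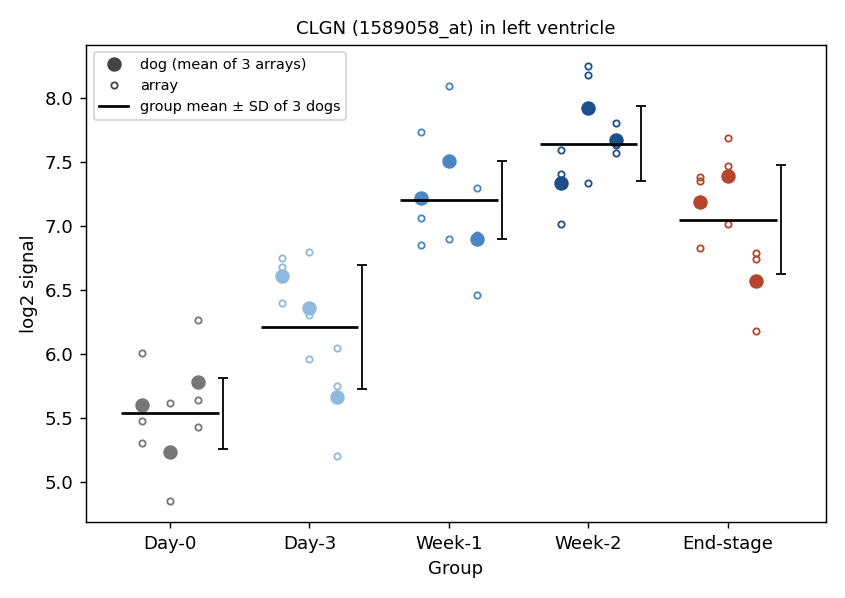
Log2 signal of CLGN (vertical axis) in the 5 groups (horizontal axis); filled points are dogs, open points their 3 arrays, and lines with bars the group mean ± SD over 3 dogs. The group means climb to 7.64 at Week-2, and Day-3 dog 3, at 5.67, is the only paced dog within the Day-0 range.

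Single arrays showed the same separation with more scatter. The 9 unpaced arrays lay between 4.86 and 6.27, and 31 of the 36 paced arrays lay above the highest of them. At Week-1 the arrays spanned 6.46 to 8.09 and at Week-2 7.02 to 8.25, both above all unpaced arrays. At End-stage they spanned 6.18 to 7.69 and at Day-3 5.21 to 6.80. RNA isolations of 1 dog had a typical SD of 0.39 for CLGN, which is close to the SD of 0.37 between the means of dogs in a group.

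Among the 14302 probe sets tested, few had a larger rise than CLGN. The number with a larger difference was 332 at Day-3 (2.32%), 14 at Week-1 (0.0979%), 6 at Week-2 (0.042%) and 18 at End-stage (0.126%). CLGN was picked for this rise, so its rank describes the choice. The share of all tested probe sets whose 3 paced dogs lay above the 3 Day-0 dogs was 6.16% at Day-3, 6.73% at Week-1, 8.08% at Week-2 and 6.33% at End-stage.

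CALR was higher in every paced group by about the same amount. Its gene lies on chromosome 20 at 49648459 to 49652362. With its brightest probe set, 1606177_s_at, the Day-0 dogs had 8.03, 7.44 and 7.18, the Day-3 dogs 8.13, 8.45 and 8.28, and the Week-1 dogs 8.17, 8.41 and 8.61. The Week-2 dogs had 8.32, 8.13 and 8.30 and the End-stage dogs 8.36, 8.06 and 8.97. All 12 paced dogs lay above the 3 unpaced dogs, but the lowest of them, End-stage dog 2, was only just above Day-0 dog 1. Over all tested probe sets, 0.909% had all 12 paced dogs above the unpaced dogs.

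The log2 difference of CALR from Day-0 with this probe set was 0.73 at Day-3, 0.84 at Week-1, 0.70 at Week-2 and 0.91 at End-stage (SE 0.23 each), or 1.66-fold, 1.79-fold, 1.62-fold and 1.88-fold. Unlike CLGN, it had reached this size at Day-3, and the steps between consecutive paced groups, 0.11, -0.15 and 0.22, were each smaller than their SE. Day-0 dog 1 weighed on these values. Without it the 4 differences lay between 0.93 and 1.15, and without Day-0 dog 3 between 0.51 and 0.73. Without the 2 dogs that matched each other, the difference was 0.96 at Week-1, 0.97 at End-stage and 0.84 in all paced dogs, against 0.80 with them.

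The other CALR probe sets gave the same direction with smaller differences. Probe set 1587176_at had 6.92 ± 0.39 at Day-0 (SD, n = 3 dogs), 7.41 ± 0.20 at Day-3, 7.26 ± 0.15 at Week-1, 7.59 ± 0.28 at Week-2 and 7.40 ± 0.48 at End-stage. Probe set 1595929_at had 6.24 ± 0.18 at Day-0, 6.64 ± 0.27 at Day-3, 6.79 ± 0.18 at Week-1, 6.66 ± 0.20 at Week-2 and 6.87 ± 0.32 at End-stage. The probe sets disagreed on the order of the groups: 1587176_at was highest at Week-2, where the other 2 were highest at End-stage.

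Overlap with the unpaced dogs also differed between the CALR probe sets. With 1587176_at the paced dogs were clear of the unpaced dogs at Week-2 only, where the difference was 0.67 (SE 0.24). Its differences at Day-3, Week-1 and End-stage were 0.49, 0.34 and 0.48, against 0.27, 0.12 and 0.27 without Day-0 dog 3, and 0.21 at End-stage without End-stage dog 3. With 1595929_at they were clear at Week-1 and End-stage, with differences of 0.55 and 0.63 (SE 0.19). Of all tested probe sets 6.73% were so separated upwards at Week-1, 8.08% at Week-2 and 6.33% at End-stage. Without the 2 dogs that matched each other, the differences at Week-1 and End-stage were 0.41 and 0.56 with 1587176_at and 0.58 and 0.67 with 1595929_at. In all paced dogs the difference was then 0.53 with 1587176_at, against 0.49 with these dogs, and 0.52 with 1595929_at, against 0.50. Averaged over the 3 probe sets, CALR differed from Day-0 by 0.54 at Day-3, 0.58 at Week-1, 0.59 at Week-2 and 0.67 at End-stage. Over the 15 dogs, 1606177_s_at correlated with 1587176_at at a Pearson r of 0.76 and with 1595929_at at 0.89. A probe set with the suffix _s_at can match more than 1 transcript, so its signal may not come from CALR alone.

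**Figure D2:**
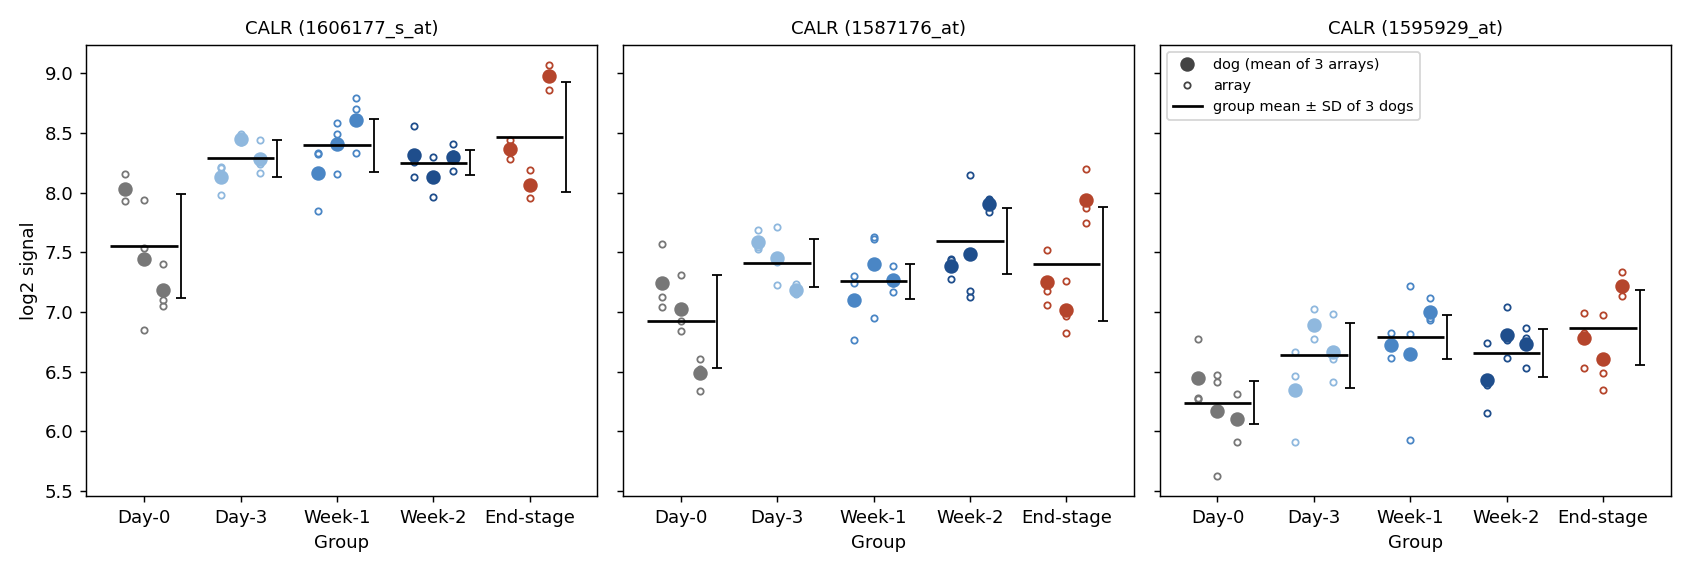
Log2 signal of CALR (vertical axis) by group (horizontal axis) for its 3 probe sets, one panel each; filled points are dogs, open points arrays, and lines with bars the group mean ± SD over 3 dogs. In the left panel all paced dogs lie above the Day-0 dogs, and in the other panels some paced dogs fall within the Day-0 range.

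Both chaperones lay higher in paced dogs, whereas the correlation of their deviations from the group means was below 0. Whether other pairs of genes did the same was not tested. Across the 15 dogs CLGN and CALR (1606177_s_at) had a Pearson r of 0.45 and a Spearman rho of 0.25, as a description of dogs that fall into 5 groups. Without Day-0 dogs 1 and 2, the dogs farthest from the median CLGN level, r was 0.24. After each group's mean was subtracted, r was -0.50 and rho -0.53, and r was -0.41 without Day-3 dog 3 and End-stage dog 3. Without the 2 dogs that matched each other, r was 0.45 for levels and -0.51 for deviations.

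In 9 of 15 dogs CLGN and CALR deviated from their group means in opposite directions. End-stage dog 3 had the lowest CLGN level of its group (deviation -0.48) and the highest CALR level (0.51), and End-stage dog 2 had the highest CLGN level (0.34) and the lowest CALR level (-0.40). The deviations of CLGN correlated with those of the other CALR probe sets at -0.21 (1587176_at) and -0.41 (1595929_at). The probe sets come from the same arrays, and deviations within a group of 3 sum to 0, so these 15 values are not independent.

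**Figure D3:**
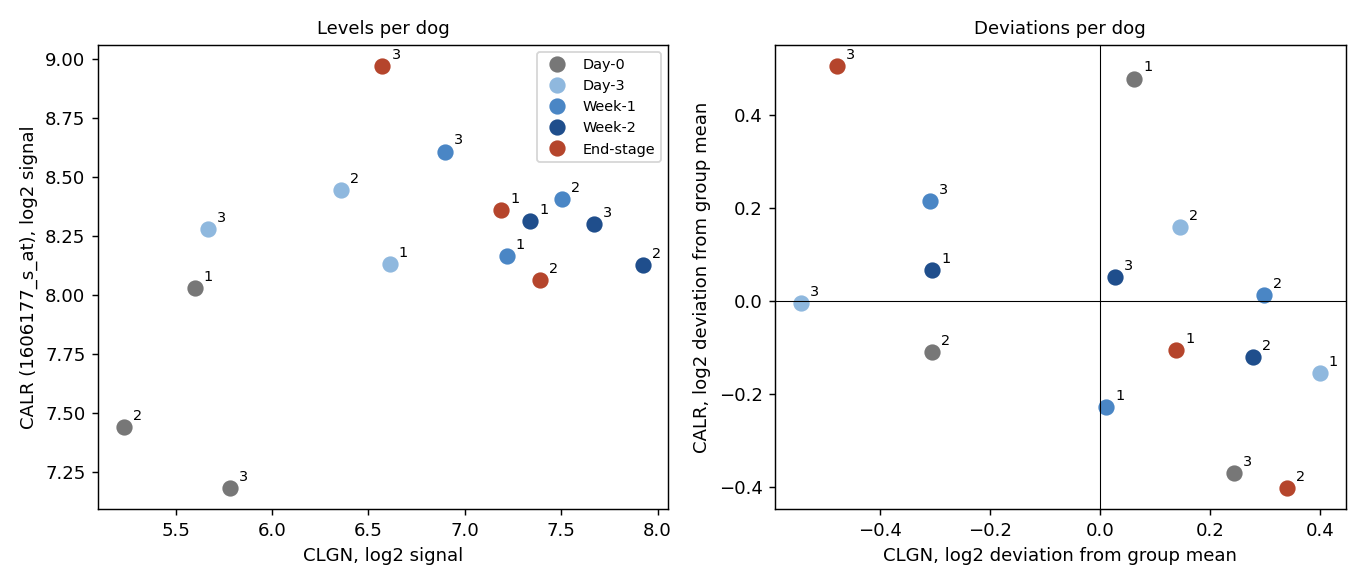
CLGN (horizontal axis) against CALR probe set 1606177_s_at (vertical axis) in the 15 dogs, as log2 levels (left) and as log2 deviations from the group mean (right); colours mark groups and digits dog numbers. On the left the 3 Day-0 dogs sit at the lower left, and on the right End-stage dogs 2 and 3 lie at opposite corners.

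The genes whose levels were most like those of CLGN over the 15 dogs were CCT4 (Pearson r 0.92), PLEKHO1 (0.88), RPN2 (0.87), PDIA6 (0.86), AKAP13 (0.86) and DYNC1H1 (0.86), out of 7670 tested probe sets with 1 symbol. CCT4 is a subunit of the cytosolic chaperonin that folds actin and tubulin, RPN2 a subunit of the oligosaccharyltransferase that attaches N-linked glycans, PDIA6 a disulfide isomerase of the ER, and DYNC1H1 the heavy chain of cytoplasmic dynein. After subtraction of the group means the r with CLGN was 0.34 for RPN2 and 0.32 for PDIA6, against 0.85 for AKAP13 and 0.81 for DYNC1H1. RUSC2 (-0.86), APEX1, a DNA repair enzyme (-0.85), and LOC478678 (-0.85) ran most opposite to CLGN.

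CALR was most like DNAL4, a dynein light chain (r 0.92), GMEB1 (0.87), CKAP4, a membrane protein of the ER (0.85), BCL2L13 (0.81), the alpha tubulin TUBA1C (0.79) and CPNE1 (0.78). Most opposite were EPHX1, an epoxide hydrolase of the ER membrane (-0.86), MLYCD, which breaks down malonyl-CoA (-0.86), and the plexin PLXNB1 (-0.81). No gene stood in both sets of 6. With Spearman's rho, 3 of the 6 genes most like CLGN and 2 of the 6 most like CALR were again among the top 6, and with deviations from the group means 0 and 1 were. These correlations describe 15 dogs that share the group differences.

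Of 14 further genes of the lectin chaperone cycle, 8 had a probe set and 7 were bright enough to be tested. None was called in any of the 4 groups or in all paced dogs together with limma and Benjamini-Hochberg adjustment over all probe sets. At an unadjusted p under 0.05, 1 of 7 was higher and 0 lower at Day-3, 0 and 0 at Week-1, 1 and 0 at Week-2, and 1 and 1 at End-stage. For all paced dogs together it was 2 and 1. At Week-1, 1 was higher without the 2 dogs that matched each other. Over all probe sets the share higher by that rule was 3.72% at Day-3, 3.9% at Week-1, 5.03% at Week-2, 3.7% at End-stage and 5.37% for all paced dogs. The share lower was 4.35%, 5.1%, 6.14%, 4.53% and 6.32% in the same order. With 7 genes, 1 gene is 14.3%. The adjusted test called 0% of all probe sets at Day-3, 0.028% at Week-1, 0.0839% at Week-2, 0.014% at End-stage and 0.301% for all paced dogs.

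Calnexin, which resembles calmegin most closely, had no estimate above 0. Its brightest probe set, 1599364_at, had log2 signals of 9.998, 10.17 and 10.18 in the Week-2 dogs, against 10.05, 10.13 and 10.31 in the Day-0 dogs. These dogs overlapped, and the differences from Day-0 were between -0.18 and -0.05 in the 4 groups (SE 0.11). The one at Week-2 was above 0 without Day-0 dog 3 (0.02) or Week-2 dog 1 (0.01), and the one at End-stage was -0.05 without the 2 dogs that matched each other. With 1584805_at the CANX levels were 8.55, 8.02 and 8.77 in the Week-2 dogs, against 9.01, 8.63 and 9.08 in the Day-0 dogs. The dogs overlapped here too, whereas the Week-1 dogs (8.59, 8.20 and 8.24) and the End-stage dogs (8.58, 8.02 and 8.57) all lay below the unpaced dogs. Of all tested probe sets 9.4% were so separated downwards at Week-1 and 7.94% at End-stage. On this probe set CANX was -0.47 (SE 0.17) in all paced dogs minus Day-0, with a limma adjusted p of 0.277. The CANX gene lies on chromosome 11 at 2232031 to 2264021.

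PDIA3, the disulfide isomerase that works in complex with calnexin and calreticulin, had 7.99, 7.76 and 8.14 in the Week-2 dogs, against 7.58, 6.49 and 7.52 in the Day-0 dogs. The Week-2 dogs lay above the unpaced dogs, as for 8.08% of all probe sets, and the difference was 0.77 (SE 0.30, limma adjusted p = 0.344). It rested in part on Day-0 dog 2, without which it was 0.41. Malectin (MLEC), an ER lectin that binds glucosylated glycans, differed by 0.64 (SE 0.25, adjusted p = 0.524) at Day-3, its largest value, or by 0.37 without Day-3 dog 3, and by 0.17 at Week-2, or -0.04 without Day-0 dog 3. The cyclophilin PPIB, which speeds proline isomerisation, differed by 0.20 to 0.29 in the 4 groups (SE 0.16), and by 0.09 to 0.39 when single dogs were left out.

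The cargo receptors that carry glycoproteins to the Golgi lay near their unpaced levels or below them. LMAN1 differed from Day-0 by between -0.24 and 0.24 in the 4 groups (SE 0.26), LMAN2 by between 0.04 and 0.15 (SE 0.16), and MCFD2, the partner of LMAN1, by between -0.31 and -0.13 (SE 0.12). The MCFD2 difference of -0.31 was at End-stage (limma adjusted p = 0.444). Its Week-1, Week-2 and End-stage dogs all lay below the unpaced dogs. Of all probe sets 9.4% were so separated at Week-1 and 7.94% at End-stage, and the share at Week-2 is not given here. When single dogs were left out, LMAN1 ranged from -0.44 (End-stage without dog 1) to 0.45 (Day-3 without Day-0 dog 1), LMAN2 from -0.11 to 0.26 and MCFD2 from -0.38 to -0.07. CALR3, a relative of calreticulin known from testis, had group means between 3.77 and 4.52 and was too dim to be tested, since the limit was a signal of 22.8.

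**Figure D4:**
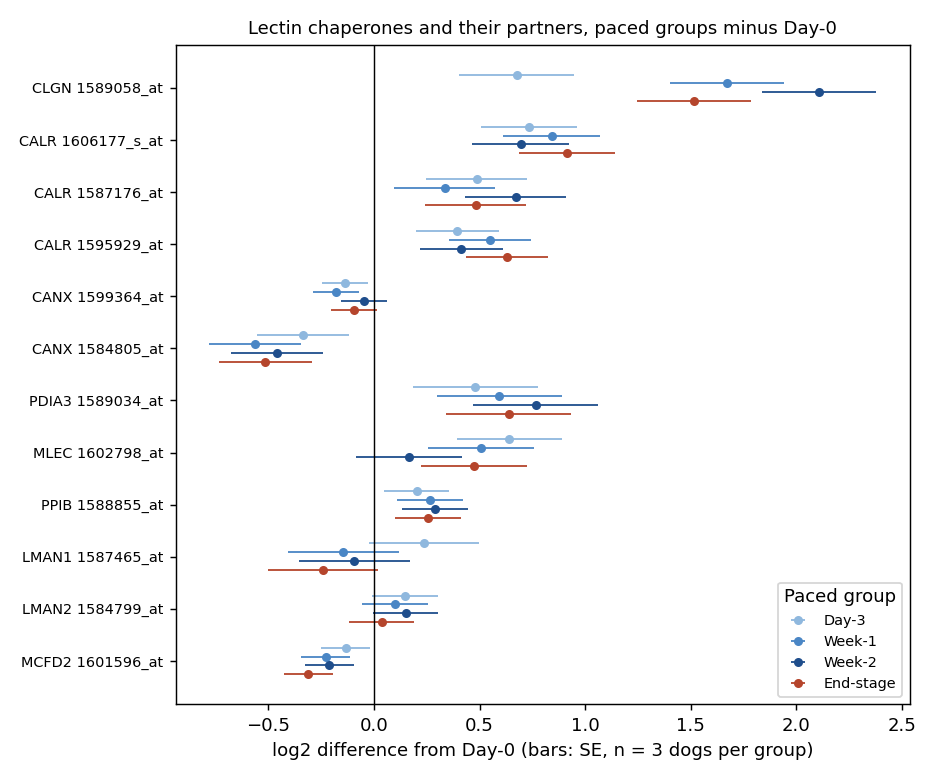
Log2 difference from Day-0 (horizontal axis, bars are SE, 3 dogs per group) in the 4 paced groups for the probe sets of CLGN and CALR and of 7 genes of the lectin chaperone cycle (rows). CLGN reaches 2.11 at Week-2, PDIA3 0.77, and both CANX probe sets lie below 0 in every group.

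In the wider pathway of ER glycoprotein folding, 144 genes in 7 lists were considered, of which 88 had a probe set and 85 were tested. With limma and adjustment over all probe sets, 0 of the 85 were called in any of the 4 groups or in all paced dogs together. At an unadjusted p under 0.05, 13 were higher at Day-3, 13 at Week-1, 17 at Week-2 and 12 at End-stage. These are 15.3%, 15.3%, 20.0% and 14.1% of the genes, beside 3.72%, 3.9%, 5.03% and 3.7% of all probe sets. Fewer were lower, 2 at Day-3, 3 at Week-1, 2 at Week-2 and 2 at End-stage, beside 4.35%, 5.1%, 6.14% and 4.53% of all probe sets. In all paced dogs 21 (24.7%) were higher and 2 (2.35%) lower, beside 5.37% and 6.32% of all probe sets. Without the 2 dogs that matched each other, 13 were higher at Week-1, 13 at End-stage and 22 in all paced dogs. With all dogs kept, the genes counted as higher include SDF2L1 and UBE2J1, and at Week-2 also ASNS. These genes passed the limit for testing only through the paced groups, which favours higher counts. The lists were also written with earlier results of these arrays known, so these shares are descriptions.

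The ER chaperones and oxidoreductases had the most such genes, 8 of 16 at Week-2 beside 5.03% of all probe sets, with a list median of 0.35 beside -0.01 for all probe sets. Fewer were higher at Day-3 (6), Week-1 (6) and End-stage (5), beside 3.72%, 3.9% and 3.7% of all probe sets. At Day-3 and at Week-1, 1 gene was lower, beside 4.35% and 5.1%. PDIA4, PDIA6 and ERP29, which assist folding and disulfide formation, differed from Day-0 in all paced dogs by 0.61 (SE 0.13, limma adjusted p = 0.0576), 0.46 (SE 0.10, adjusted p = 0.0711) and 0.46 (SE 0.10, adjusted p = 0.0711). PDIA6 had 9.0 ± 0.14 at Week-2 and 8.42 ± 0.18 at Day-0 (SD, n = 3 dogs each). PDIA5 differed by 0.27 at Day-3, -0.39 at Week-1, 0.33 at Week-2 and 0.20 at End-stage (SE 0.13 each). Chosen after their values were seen, SDF2L1, an ER chaperone cofactor, had the largest difference of the list at 1.52 (SE 0.36, adjusted p = 0.0792), and HSPA5, the main Hsp70 of the ER, differed by 0.24 (SE 0.21, adjusted p = 0.756). Without Day-0 dog 2 the HSPA5 difference was 0.01 and that of SDF2L1 1.11. The Day-0 mean log2 level of SDF2L1, 3.87, was below the limit for testing, which it passed only through the paced groups. SDF2L1 is among the genes of this list counted as higher in each group.

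The oligosaccharyltransferase subunits, which attach the glycan, had small positive estimates, with 8 of 8 above 0 at Week-1, Week-2 and End-stage. The list medians were 0.14, 0.21 and 0.21, beside -0.03, -0.01 and -0.02 for all probe sets. At an unadjusted p under 0.05, 2 of 8 were higher at Day-3, 3 at Week-1, 2 at Week-2 and 3 at End-stage. The shares of all probe sets were 3.72%, 3.9%, 5.03% and 3.7%. RPN2 had 11.69, 11.84 and 11.58 in the Week-2 dogs, against 11.10, 11.09 and 11.30 in the Day-0 dogs, on its brightest probe set. The groups did not overlap, as upwards for 8.08% of all probe sets, and the difference was 0.54 (SE 0.12, limma adjusted p = 0.0969). TUSC3 differed by 0.66 (SE 0.20, adjusted p = 0.295) at End-stage. STT3A, a catalytic subunit, and DAD1 differed by 0.26 (SE 0.10) and 0.24 (SE 0.10) in all paced dogs.

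Among stress sensors and factors 1 of 8 genes was higher at Day-3, at Week-1 and at End-stage at an unadjusted p under 0.05. The shares of all probe sets were 3.72%, 3.9% and 3.7%. At Week-1, 1 gene was lower, beside 5.1% of all probe sets. At Week-2, 3 of 8 genes were higher, beside 5.03% of all probe sets. XBP1, the transcription factor made by the IRE1 branch of the unfolded protein response, differed by 0.66 (SE 0.16, limma adjusted p = 0.115), with 9.62 ± 0.16 at Week-2 and 8.95 ± 0.09 at Day-0 (SD, n = 3 dogs each). PPP1R15A, which restores translation after stress, and ASNS, an amino acid synthesis gene, differed by 1.22 (SE 0.51) and 0.88 (SE 0.35) at Week-2. Without Day-0 dog 1 the PPP1R15A difference was 0.65. The Day-0 mean log2 level of ASNS, 4.39, was below the limit for testing, which it passed only through the paced groups. ASNS is among the 3 genes counted as higher at Week-2. NFYC lay below 0 in every paced group, with differences of -0.32 (SE 0.15) at Week-1 and -0.15 (SE 0.15) at Week-2. Without Day-0 dog 2 the NFYC difference was -0.003 at Day-3, -0.19 at Week-1 and -0.01 at Week-2.

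Of the degradation genes, UBE2J1, a ubiquitin-conjugating enzyme of the ER membrane, had 5.93, 5.77 and 5.34 in the Week-2 dogs, against 3.90, 4.16 and 4.61 in the Day-0 dogs. The difference was 1.45 (SE 0.32, limma adjusted p = 0.0959) without overlap, as upwards for 8.08% of all probe sets. The Day-0 mean log2 level of UBE2J1, 4.23, was below the limit for testing, which it passed only through the paced groups. SELENOS differed by 0.34 (SE 0.13) at Week-2, VCP by 0.15 (SE 0.22) and EDEM2 by -0.10 (SE 0.13). The median of the 14 degradation genes at Week-2 was 0.07. The 8 tested genes of ER calcium handling gave a Week-2 median of -0.07. RYR2, the calcium release channel of heart muscle, differed by -0.67 (SE 0.14, adjusted p = 0.0796), and all 12 paced dogs lay below the unpaced dogs, as for 1.61% of all probe sets. At Week-2 CALU, an ER calcium-binding protein, differed by -0.14 (SE 0.11), or by -0.09 without Day-0 dog 1 or Week-2 dog 2. TMCO1 and RCN1 differed by 0.17 (SE 0.11) and 0.36 (SE 0.25) at Week-2, and RCN1 by 0.17 without Day-0 dog 2. The 24 translocon and signal peptidase genes were near the median of all probe sets at Week-2 (list median 0.05), with SPCS3, a signal peptidase subunit, at 0.49 (SE 0.10, adjusted p = 0.0806). At Week-2 SPCS2 and SEC61A1 differed by 0.20 (SE 0.13) and 0.15 (SE 0.28), and SRP19 by -0.28 (SE 0.10, adjusted p = 0.324).

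**Figure D5:**
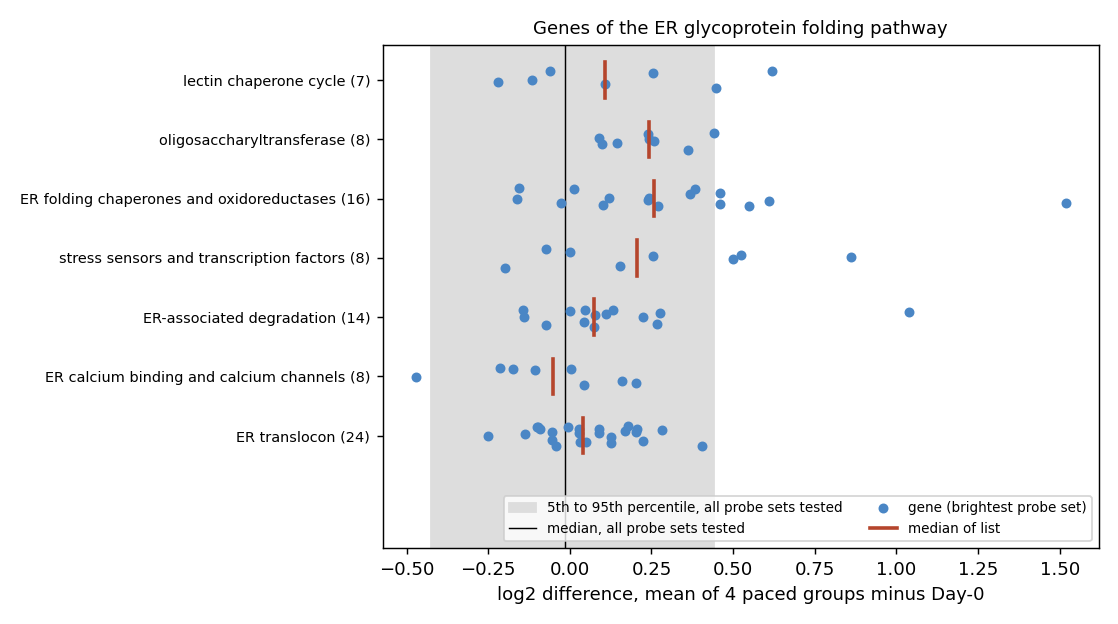
Log2 difference of the mean of the 4 paced groups minus Day-0 (horizontal axis) for tested genes of the 7 lists (rows, number of genes in brackets); points are genes, red lines list medians, the grey band the 5th to 95th percentile of all tested probe sets (-0.43 to 0.44). CLGN and CALR, at 1.49 and 0.80, are left out of the lists.

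Marker genes were measured for the cell types that the tissue can hold. Heart muscle genes were bright in all groups, with MYH7, the slow myosin heavy chain, at a log2 mean of 13.51 and the troponin gene TNNT2 at 13.32. The cardiomyocyte list, 10 of 13 genes measured, had a summed signal of 70848 to 105403 over the paced dogs and 76070 to 113060 in the Day-0 dogs. The fibroblast list, 6 of 9 measured, summed to 6557 to 12218 in paced dogs and 6175 to 9223 in Day-0 dogs, and POSTN, one of its defining genes, had a log2 mean of only 1.02. The macrophage list, 9 of 10 measured, summed to 535 to 1072 in paced dogs and 559 to 739 in Day-0 dogs. All 3 ranges overlapped. In all paced dogs minus Day-0 the medians of the tested genes were -0.14 for cardiomyocytes (10 of 10 estimates below 0), 0.46 for fibroblasts (4 of 5 above 0) and 0.23 for macrophages (6 of 8 above 0). With limma 0 of these genes were called after adjustment. At an unadjusted p under 0.05, 1 cardiomyocyte gene was lower, and 2 fibroblast genes and 1 macrophage gene were higher, beside 6.32% lower and 5.37% higher of all probe sets. The medians were -0.07, 0.52 and 0.28 without the 2 dogs that matched each other.

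The smooth muscle and pericyte list, 6 of 9 measured, summed to 11231 to 13636 at End-stage, against 13793 to 16151 at Day-0, without overlap. At End-stage its median difference was -0.55 and 4 of 6 genes were lower at an unadjusted p under 0.05, beside 4.53% of all probe sets. Without End-stage dog 1 and Week-1 dog 1 the median was -0.52 and 2 were lower. At Day-3, Week-1 and Week-2 the sums, 11834 to 17187, overlapped those of Day-0.

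The summed signals of the lymphocyte and endothelial lists were each higher in some paced groups, but not through most of their genes. Of 4 tested lymphocyte genes 1 had an estimate above 0 at Week-1, 2 at Week-2 and 1 at End-stage. Of 4 tested endothelial genes 1 did at Week-2. The lymphocyte and plasma cell list, 5 of 12 measured, summed to 1058 to 1369 at Week-1, 1167 to 1387 at Week-2 and 1124 to 1304 at End-stage, against 993 to 1040 at Day-0. XBP1 is its brightest gene, with a log2 mean of 9.37, and the median of its 4 tested genes was 0.01 at Week-2 and -0.05 in all paced dogs. In each, 1 of 4 was higher at an unadjusted p under 0.05, beside 5.03% and 5.37% of all probe sets. That gene was XBP1, which is also counted above among the stress factors. The endothelial list, 4 of 9 measured, summed to 2676 to 3297 at Week-2 and 2628 to 3284 at End-stage, against 2489 to 2666 at Day-0, and to 2092 to 2275 at Week-1. The Week-2 dogs lay above the unpaced dogs and the Week-1 dogs below them, while the End-stage dogs overlapped them. Of its genes VWF differed by 0.53 at Week-2, whereas TIE1 and TEK differed by -0.25 and -0.18, and the list median in all paced dogs was -0.18.

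The mast cell list, 2 of 7 measured, summed to 19.6 to 57.7 in paced dogs and 34.7 to 37.4 in Day-0 dogs. The adipocyte list, 3 of 6 measured, summed to 116 to 475 in paced dogs and 107 to 191 in Day-0 dogs, and both ranges overlapped. The part of these cell types in the values of CLGN and CALR was not tested. Of 17 germ cell genes of the testis, 4 were measured and 1, ODF1, was bright enough to be tested; the 4 summed to 102 to 142 in paced dogs and 130 to 173 in Day-0 dogs.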

How the data were processed

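The deposited table gives 1 intensity per probe set and array on a linear scale, from MAS5 in GCOS 1.4 per the submitters' processing notes. It was already scaled: with 2% of probe sets trimmed at each end, the mean was 150.02 to 150.026 on every array. The number of dogs, not a sequencing depth, limits precision. Of 23913 probe sets 77 controls were left out. Names came from the platform's annotation (10549 probe sets with 1 symbol, 138 with several, 13149 with none), positions from RefSeq's gene table.

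Signals were log2 transformed and averaged per dog. The dimmest 40% of probe sets were left out and 14302 tested in 1 model with a mean per group over 15 dogs (limma 3.58.1, R 4.3.3, intensity trend, Benjamini-Hochberg, threshold 0.05); its SEs pool all groups. The fit was tested on simulated data. The labels call the dogs biological and the isolations technical replicates. All members and lists were chosen with earlier results of these data known. Named were both members, the lectin cycle genes, the 4 genes of each other list with the smallest F test p, and the 6 probe sets most and 3 least like each member by Pearson r; SDF2L1 and HSPA5 were picked with their values in view. A gene stands for its brightest probe set. Alternatives were quantile normalisation, no filter, an offset of 16, the dog number as a block, and leaving out dogs or isolations. Values of the lists and correlations without Week-1 dog 1 and End-stage dog 1, and all alternatives for SDF2L1 and HSPA5, were added after the data were seen.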

Additional observations from a re-analysis of the deposited data

Results flagged for a closer look

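PDIA5, a disulfide isomerase of the ER, lay above the Day-0 mean in every Week-2 dog (mean difference 0.33 on the log2 scale) and every End-stage dog (0.20), and below it in every Week-1 dog (-0.39). EDEM2, which takes part in ER-associated degradation, lay above the Day-0 mean in every Day-3 dog (0.25) and below it in every Week-2 dog (-0.10). These differences between stages were not tested, and all stages share the Day-0 dogs.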

How the results depend on the processing

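All 313 recomputed differences of CLGN and CALR kept their sign and moved by less than 1 SD between dogs. Leaving out 1 dog or 1 isolation gave 1.95 to 2.26 for CLGN at Week-2 and 0.66 to 1.15 for CALR at End-stage. Probe sets called, 0 at Day-3, 4 at Week-1, 12 at Week-2, 2 at End-stage and 43 in all paced dogs, depended on the setting, and the cause was not tested. Quantile normalisation gave 13 at Week-1, 24 at Week-2, 0 at End-stage and 68 in all paced dogs. Without the filter there were 7 at Week-1, 0 at End-stage and 21 in all paced dogs, and with an offset of 16 there were 12 at Week-1. Without Week-1 dog 1 and End-stage dog 1 there were 0 at Week-1, 11 at End-stage and 28 in all paced dogs. Leaving out 1 dog or isolation gave 0 to 23 at Day-3 (23 without Day-3 dog 1), 0 to 5 at Week-1 (0 without any single Week-1 or Day-0 dog), 0 to 20 at Week-2 (0 without Week-2 dog 2, 20 without Week-2 dog 3), 0 to 6 at End-stage (6 without End-stage dog 1) and 1 to 111 in all paced dogs (1 without Day-0 dog 2 or dog 3, 111 without Day-3 dog 1). Pathway genes called, 0 throughout, became 1 at Week-2 and 1 in all paced dogs after quantile normalisation (RPN2 in both). Leaving out 1 dog gave 0 to 1 at Day-3 and 0 to 3 in all paced dogs, the highest in both without Day-3 dog 1, and 1 in all paced dogs without Week-2 dog 1. Of the 6 genes most like each member, Spearman's rho kept 3 for CLGN and 2 for CALR, and deviations from group means 0 and 1.

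With the dog number as a replicate block, probe sets called were 17 at Week-1, 88 at Week-2, 0 at End-stage and 219 in all paced dogs, and pathway genes called were 5 at Week-2 (RPN2, XBP1, RYR2, SPCS3 and PDIA3) and 6 in all paced dogs. In none of the 4 comparisons with Day-0 were all 3 correlations between the deviations of same-numbered dogs over 0.1 (range -0.08 to 0.17), so the numbers were not taken to pair the dogs there. Between paced groups they were all over 0.1 in 3 of 6 pairs (range 0.05 to 0.35), and 7 of 12 paced dogs were closest to the Day-0 dog of their own number. MYH7 and UBXN4 were lowest in dog 1 of all 5 groups. Of 2618 recomputed values of other named genes, 2602 stayed on their side of the threshold and 16 passed it.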
